A study of Mus musculus with 12 samples.

Results

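The 10 genes Fos, Jun, Junb, Egr1, Ier2, Gadd45g, Gadd45b, Csrnp1, Atf3 and Btg2 are immediate early response genes, found by their symbols in a table of 19252 genes. All 10 were among the 11376 genes that passed the filter on low values, a level of at least 1 TPM in at least 4 of 12 libraries. The libraries are liver RNA of C57BL/6 mice, 4 in each of 3 groups. NFD animals received a normal fat diet, HFD animals a high fat diet, and NAC_HFD animals the high fat diet with N-acetylcysteine, a cysteine precursor and thiol antioxidant, at 2 g per litre of drinking water. All groups were fed for 14 weeks; each sample also carries an age of 8 weeks, and the time point it refers to is not stated. No allele or transgene is named for any group, and the sex and the hour of collection are not stated. The labels do not say that libraries of a group come from separate animals, so p-values measure the spread between these samples. The design sets the diet against the control diet, and the supplement against the same diet without it.

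Immediate early genes are transcribed from existing transcription factors soon after a cell receives a signal such as a growth factor, a hormone or stress, before new protein is made. Kinase cascades activate factors bound at these promoters, among them serum response factor with its ETS partners and CREB. Many of the products are transcription factors that act on a second wave of genes, and their mRNAs are short-lived. In liver, Fos, Jun and Egr1 are known for their rapid induction after partial hepatectomy.

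Csrnp1 was lower in HFD than in NFD and was the 1 of 10 genes that passed the test in that comparison, in which 2.78% of all 11376 tested genes passed; the call was lost without 7 of the 8 libraries in turn. Its mean was 9.90 ± 1.35 TPM in NFD, 6.11 ± 0.460 in HFD and 11.3 ± 2.62 in NAC_HFD (SD, n = 4). All 4 HFD libraries lay below each of the 8 other libraries in Csrnp1 and in Ier2, a pattern noticed after the values were seen and held by 0.229% of tested genes. Gadd45g had its lowest mean in HFD and its highest in NAC_HFD, and its relative Gadd45b had the opposite order, but no comparison of either gene passed the test. Jun, Egr1, Ier2, Junb and Btg2 had their highest value in a single library, NAC_HFD replicate 3.

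The TPM unit is a share of a library's transcripts, corrected for transcript length. It keeps no read count, so depth is unknown and no counting error can be given. Between 10864 and 11316 genes per library reached 1 TPM, genes of the mitochondrial genome made up 8.91% to 12.6% of the summed TPM, and the mean correlation with the other libraries of its group was 0.978 to 0.989. The summed TPM of 7 hepatocyte markers, led by Alb and Serpina1c, was 40318 to 59923, and no marker of T and NK cells or of B and plasma cells passed the filter on low values. The RNA is from whole liver, in which fewer cells of a type and less RNA per cell cannot be told apart.

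All 10 are protein-coding genes, and positions are RefSeq spans in build GRCm38.p6. Among the AP-1 and ATF subunits, Fos (ENSMUSG00000021250) at chr12:85473890-85477274, Jun (ENSMUSG00000052684) at chr4:95049036-95052222, Junb (ENSMUSG00000052837) at chr8:84976909-84978748 and Atf3 (ENSMUSG00000026628) at chr1:191170296-191183333 were measured. Of the other nuclear proteins, Ier2 (ENSMUSG00000053560) at chr8:84661331-84662852 and Csrnp1 (ENSMUSG00000032515) at chr9:119971163-119984742 were measured beside Egr1 (ENSMUSG00000038418). The growth arrest and stress genes were Gadd45g (ENSMUSG00000021453) at chr13:51846675-51848475, Gadd45b (ENSMUSG00000015312) at chr10:80930091-80932204 and Btg2 (ENSMUSG00000020423) at chr1:134074865-134079155.

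RefSeq promoter windows were matched for 8 of the 10 genes, in build GRCm38.p6; Egr1 and Ier2 had none. A set of 5 motifs was searched for on both strands of the 250 bases before each start site, counted so that -1 is the last base before the start. Those of the genes whose levels are followed most closely below are printed 5′ to 3′ on the gene's strand, with motif matches in capitals.
Fos (chr12:85473640-85473889, plus strand): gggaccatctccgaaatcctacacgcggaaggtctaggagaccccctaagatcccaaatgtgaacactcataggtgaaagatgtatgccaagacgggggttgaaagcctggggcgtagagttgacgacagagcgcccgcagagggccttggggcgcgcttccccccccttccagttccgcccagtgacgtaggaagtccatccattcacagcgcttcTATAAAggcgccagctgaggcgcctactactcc
Btg2 (chr1:134079156-134079405, minus strand): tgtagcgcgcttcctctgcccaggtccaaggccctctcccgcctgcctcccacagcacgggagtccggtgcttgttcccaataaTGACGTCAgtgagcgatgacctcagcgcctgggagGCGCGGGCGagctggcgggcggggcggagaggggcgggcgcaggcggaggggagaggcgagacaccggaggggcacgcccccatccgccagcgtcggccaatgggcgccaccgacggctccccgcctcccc
Gadd45g (chr13:51846425-51846674, plus strand): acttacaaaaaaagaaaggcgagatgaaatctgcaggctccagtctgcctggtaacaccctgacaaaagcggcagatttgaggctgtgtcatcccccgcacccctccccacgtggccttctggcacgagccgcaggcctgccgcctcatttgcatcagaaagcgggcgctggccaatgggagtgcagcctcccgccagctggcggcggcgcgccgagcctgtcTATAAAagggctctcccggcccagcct
Gadd45b (chr10:80929841-80930090, plus strand): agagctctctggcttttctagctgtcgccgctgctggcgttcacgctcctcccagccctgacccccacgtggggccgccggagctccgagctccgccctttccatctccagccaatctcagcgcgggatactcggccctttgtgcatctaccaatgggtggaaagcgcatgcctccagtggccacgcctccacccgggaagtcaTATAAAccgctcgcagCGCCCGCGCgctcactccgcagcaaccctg
Csrnp1 (chr9:119983024-119983273, minus strand): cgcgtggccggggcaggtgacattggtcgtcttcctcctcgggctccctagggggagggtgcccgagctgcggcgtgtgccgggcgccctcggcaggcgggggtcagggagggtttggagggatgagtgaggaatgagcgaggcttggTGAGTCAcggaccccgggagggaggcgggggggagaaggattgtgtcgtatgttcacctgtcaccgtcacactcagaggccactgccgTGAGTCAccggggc
The windows of Fos, Gadd45g and Gadd45b held the TATA box (TATAAA), at -33, -27 and -46; 12.4% of all 32851 windows hold it. Csrnp1 has 4 RefSeq starts, and the window printed is the 1 of the 4 with a motif: it held the AP-1 site (TGANTCA), which FOS and JUN dimers bind, at -102 and -14, against 6.75% of all windows with at least 1 match. That share is per window, and a gene with 4 windows has more chances of a match. Btg2 held the cyclic AMP response element (TGACGTCA, 1.55% of all windows) at -166 and an EGR site (GCGNGGGCG, 4.70%) at -131, and Gadd45b an EGR site at -30 on the opposite strand. The CArG box, the site of serum response factor, was in none of the 8 genes' windows and in 1.47% of all. The windows of Jun, Junb and Atf3 held no match. A match describes letters only, and binding was not measured. Sites outside the 250 bases and sites that depart from the searched pattern would be missed. The lack of a match therefore does not show that a gene has no such site.

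Tests were made with limma on log2(TPM + 1), adjusted by Benjamini and Hochberg over all 11376 genes, and a call means an adjusted p under 0.05. In HFD against NFD, 2.78% of all tested genes were called, 2.19% higher and 0.589% lower, and 19.1% had an unadjusted p under 0.05. Of the 10 genes, 1 was called, as lower, 3 had an unadjusted p under 0.05 (Csrnp1, Fos and Btg2), and 7 had a positive fold change. In NAC_HFD against HFD limma called 0% of tested genes, and 16.4% had an unadjusted p under 0.05. None of the 10 was called there; Csrnp1, Ier2, Gadd45b and Gadd45g, 4 of 10, had an unadjusted p under 0.05. In NAC_HFD against NFD 5.28% of tested genes were called, 1.76% higher and 3.52% lower, and 22.6% had an unadjusted p under 0.05, against 0 and 3 of the 10 (Btg2, Ier2 and Gadd45g). The median log2 fold changes of the 10 in the 3 comparisons were 0.15, 0.23 and 0.46, beside 0.01, -0.08 and -0.07 over all tested genes. The last 2 medians include NAC_HFD replicate 3 and were not taken without it. Without that library, the fold changes in NAC_HFD against HFD were -1.15 (Gadd45b), -0.72 (Fos), -0.33 (Junb), -0.20 (Btg2) and -0.04 (Egr1). The others were 0.06 (Atf3), 0.13 (Jun), 0.49 (Ier2), 0.72 (Csrnp1) and 2.66 (Gadd45g). Against NFD they were -0.56 (Gadd45b), -0.17 (Junb), 0.08 (Egr1), 0.10 (Csrnp1) and 0.15 (Atf3). The rest were 0.21 (Ier2), 0.22 (Fos), 0.26 (Btg2), 0.44 (Jun) and 1.81 (Gadd45g). NAC_HFD replicate 3 had a mean standardized level of the 10 genes of 1.41, against -0.50 to 0.26 in the other libraries. The comparisons share libraries in pairs, HFD being in the first and the second, so their fold changes are not independent.

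**Figure D1:**
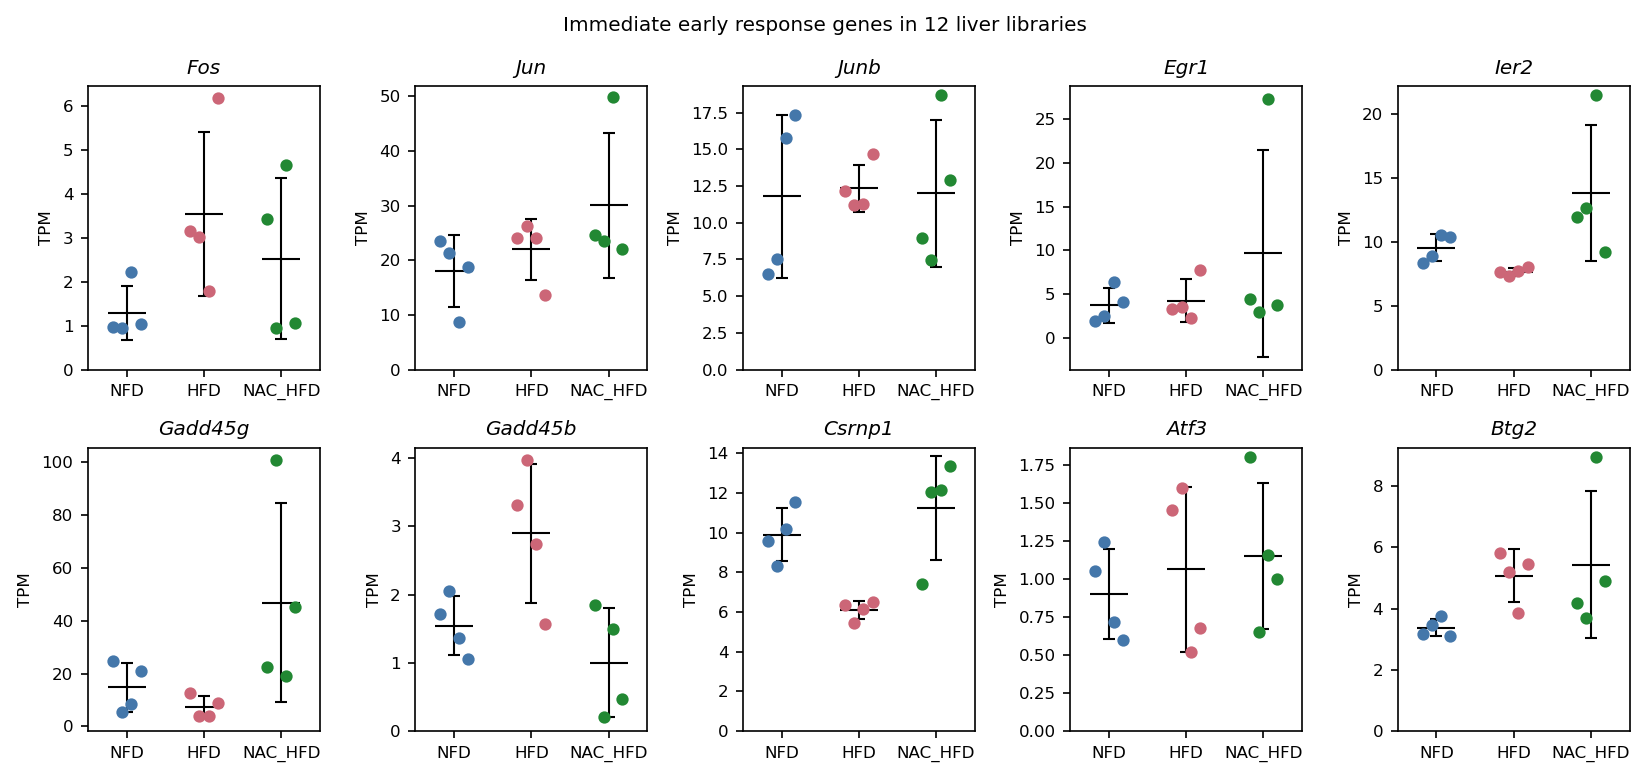
TPM of each gene in the 12 libraries (points, replicates 1 to 4 from left to right within a group), with the group mean (line) and SD (bar, n = 4). The HFD points of Csrnp1 (5.45 to 6.49 TPM) and Ier2 (7.28 to 8.04 TPM) lie below all points of the other groups, and NAC_HFD replicate 3 is far above its group in Egr1 (27.4 TPM) and Jun (49.8 TPM).

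**Figure D2:**
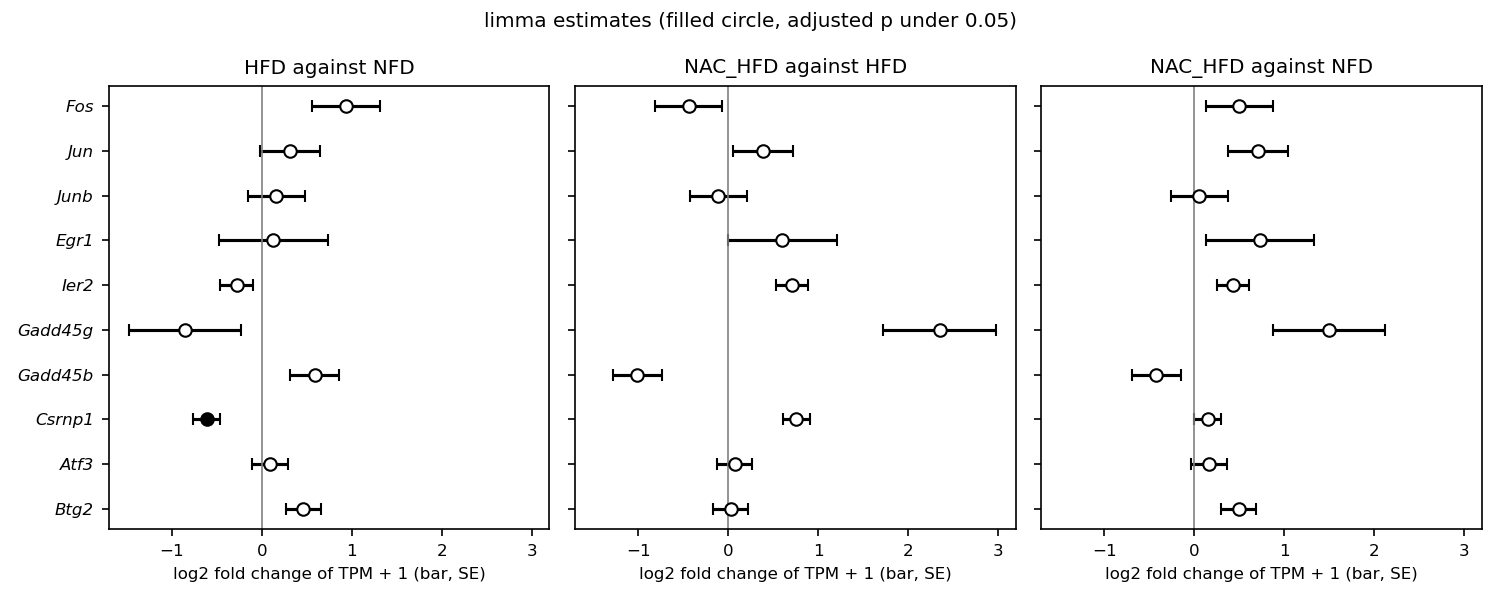
limma log2 fold change on the log2(TPM + 1) scale with its SE for the 10 genes in each comparison; filled circles mark an adjusted p under 0.05. The single filled circle is Csrnp1 in HFD against NFD (-0.61).

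Among the transcription factors, Fos, the leucine zipper partner of the JUN proteins in AP-1, was low in all libraries. It was at 0.96, 0.95, 2.21 and 1.03 TPM in NFD, at 3.15, 3.02, 1.79 and 6.17 TPM in HFD and at 3.42, 0.94, 4.66 and 1.05 TPM in NAC_HFD. NFD replicate 3 reached above the lowest HFD library, so these groups overlapped, and the NAC_HFD libraries formed a high and a low pair. The mean of HFD was 2.74 times that of NFD (log2 fold change 0.94, SE 0.37, adjusted p = 0.203). NAC_HFD differed from HFD by -0.44 (SE 0.37, adjusted p = 0.592) and from NFD by 0.50 (SE 0.37, adjusted p = 0.457). In the authors' deposited table of mRNA transcripts for HFD against NFD, the single Fos transcript is listed with a log2 fold change of 1.5 and an adjusted p of 0.187. The tables of the authors list only transcripts with an unadjusted p under 0.05 and a log2 fold change of at least 1 in size.

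Jun, the second core subunit of AP-1, had the highest mean level of the 10 genes in NFD and HFD. It was at 23.5, 21.3, 8.67 and 18.8 TPM in NFD, at 24.03, 26.2, 24.1 and 13.7 TPM in HFD and at 24.7, 23.6, 49.8 and 22.1 TPM in NAC_HFD. The groups overlapped apart from NAC_HFD replicate 3, which was above all other libraries. No comparison passed; the log2 fold change was 0.31 (SE 0.33, adjusted p = 0.656) for HFD against NFD and 0.39 (SE 0.33, adjusted p = 0.592) for NAC_HFD against HFD. Junb, a JUN protein that can restrain JUN, was at 6.52 to 17.4 TPM in NFD, 11.2 to 14.7 in HFD and 7.44 to 18.7 in NAC_HFD. Its group means, 11.8 ± 5.54, 12.3 ± 1.61 and 11.99 ± 5.02 TPM, lay within 1 SD of one another, and NFD replicates 3 and 4 were above replicates 1 and 2 of that group. Atf3, a stress-induced factor of the ATF and CREB family, was the lowest of the 10 in NFD and HFD, with a range over all libraries of 0.520 to 1.80 TPM and adjusted p from 0.657 to 0.888.

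Egr1, a zinc finger factor that links growth factor and glucose signals to transcription, was at 1.95, 2.47, 6.41 and 4.12 TPM in NFD and at 3.33, 3.53, 2.21 and 7.80 TPM in HFD. In NAC_HFD it was at 4.46, 2.98, 27.4 and 3.80 TPM. Replicate 3 alone lay outside the range of the other groups, at a level 14.0 times that of the lowest library. The log2 fold change of NAC_HFD against HFD was 0.60 (SE 0.60, adjusted p = 0.650), and without NAC_HFD replicate 3 it was -0.04. Its transcript ENSMUST00000165033 made up 86.2% to 99.1% of the gene in every library.

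Csrnp1 encodes a nuclear protein rich in cysteine and serine that is induced by AXIN1. It was at 9.56, 8.31, 10.2 and 11.6 TPM in NFD, at 6.34, 5.45, 6.15 and 6.49 TPM in HFD and at 7.43, 12.05, 12.2 and 13.4 TPM in NAC_HFD. All HFD libraries were below all NFD and all NAC_HFD libraries, and NFD and NAC_HFD overlapped. Csrnp1 fell in HFD against NFD, to 0.617 times the NFD mean (log2 fold change -0.61, SE 0.15, adjusted p = 0.0450). Among the left-out libraries the call was kept without NFD replicate 2 only, and the highest adjusted p was 0.117, without HFD replicate 2. Over 18 alternatives it was kept in 9, with an adjusted p of 0.0162 to 0.117. NAC_HFD against HFD did not pass (0.76, SE 0.15, adjusted p = 0.0570). It passed without NAC_HFD replicate 1, the lowest library of that group (0.93, adjusted p = 0.00775). The difference of NAC_HFD from NFD was 0.15 (SE 0.15, adjusted p = 0.586).

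Ier2, a nuclear protein of the early response whose targets are little known, was at 8.35, 8.91, 10.5 and 10.3 TPM in NFD and at 7.60, 7.28, 7.67 and 8.04 TPM in HFD. It was at 11.9, 12.6, 21.5 and 9.16 TPM in NAC_HFD. Here too the 4 HFD libraries were the lowest of the 12, and their SD of 0.312 TPM was small beside 1.07 in NFD and 5.32 in NAC_HFD. HFD against NFD did not pass (log2 fold change -0.28, SE 0.18, adjusted p = 0.428), nor did NAC_HFD against HFD (0.71, SE 0.18, adjusted p = 0.0929; 0.49 without NAC_HFD replicate 3). All HFD libraries below the 8 others was found for 26 of 11376 tested genes and for 2 of the 10, while 1.66% of tested genes had all HFD libraries above the others and none of the 10 did.

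The GADD45 proteins bind the kinase MAP3K4 upstream of p38 and JNK, and take part in growth arrest and stress responses. Gadd45g was at 24.7, 5.53, 8.63 and 20.9 TPM in NFD, at 12.6, 3.79, 4.11 and 8.88 TPM in HFD and at 22.5, 101, 19.2 and 45.1 TPM in NAC_HFD. All NAC_HFD libraries were above all HFD libraries, whereas NFD overlapped both. The mean of NAC_HFD was 6.39 times that of HFD (log2 fold change 2.35, SE 0.62, adjusted p = 0.124), and without NAC_HFD replicate 2, at 101 TPM, the fold change was 1.89. HFD against NFD was at -0.86 (SE 0.62, adjusted p = 0.493) and NAC_HFD against NFD at 1.49 (SE 0.62, adjusted p = 0.189). In the authors' deposited table of mRNA transcripts for NAC_HFD against HFD, the coding transcript ENSMUST00000021903 is listed with a log2 fold change of 2.80 and an adjusted p of 0.00162. The authors' deposited lncRNA table lists a noncoding transcript of the gene, ENSMUST00000132480, with 2.49 and an adjusted p of 0.109.

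Gadd45b was at 1.71, 2.05, 1.37 and 1.06 TPM in NFD, at 3.31, 3.97, 2.75 and 1.57 TPM in HFD and at 1.85, 0.2, 1.5 and 0.470 TPM in NAC_HFD. Replicates 1 to 3 of HFD were the highest of the 12 libraries, and HFD replicate 4 lay within both other groups. NAC_HFD was at 0.347 times the HFD mean (log2 fold change -1.01, SE 0.27, adjusted p = 0.115) and HFD at 1.87 times the NFD mean (0.59, SE 0.27, adjusted p = 0.265). In the authors' deposited table for NAC_HFD against HFD its transcript ENSMUST00000015456 is listed with a log2 fold change of -1.36 and an adjusted p of 0.164. At levels this low the pseudocount shrinks the estimate: with 0.1 in place of 1 the fold change of NAC_HFD against HFD was -1.74 (adjusted p = 0.152). Btg2, an antiproliferative partner of the CCR4-NOT deadenylase, was at 3.18, 3.48, 3.75 and 3.12 TPM in NFD and at 5.81, 5.21, 3.85 and 5.45 TPM in HFD. It was at 4.19, 3.70, 8.97 and 4.89 TPM in NAC_HFD. All HFD libraries were above all NFD libraries (0.46, SE 0.19, adjusted p = 0.212), and NAC_HFD against NFD was similar in size (0.49, SE 0.19, adjusted p = 0.149).

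Groups that did not overlap were thus found for 3 of 10 genes in HFD against NFD (Csrnp1 and Ier2 lower, Btg2 higher). The same held for 12.4% of tested genes, 7.78% being higher and 4.57% lower in HFD. They were found for 3 of 10 in NAC_HFD against HFD (Csrnp1, Ier2 and Gadd45g higher). In that comparison 10.2% of tested genes did not overlap, 1.56% being higher and 8.66% lower in NAC_HFD. In NAC_HFD against NFD it held for 12% of tested genes, 3.52% higher and 8.52% lower, and for 0 of the 10. Spread within groups was wide: the residual SD of log2(TPM + 1) was 0.23 for Csrnp1 and 0.29 to 0.92 for the other 9, beside a median of 0.18 over all tested genes. That of Gadd45g exceeded 99.5% of tested genes and that of Egr1 99.4%, while Csrnp1 exceeded 73.2%.

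The summed level of 11 Kupffer cell markers was 83.5 to 157 TPM in NFD, 111 to 280 in HFD and 77.2 to 151 in NAC_HFD, led by Cd5l and C1qb; none of the 11 was at 0. Of these markers 11 had a positive fold change in HFD against NFD and 11 a negative one in NAC_HFD against HFD, with 0 called by limma in either. An unadjusted p under 0.05 was found for 5 and 8 of the 11, beside 19.1% and 16.4% of all tested genes, and 2.78% and 0% of these were called. HFD replicate 4 had the highest marker sum, 280 TPM, and the highest Fos, and HFD replicate 3 the lowest sum of its group, 111 TPM, and the lowest Fos of its group. In NAC_HFD the sums were 151, 77.2, 87.6 and 129 TPM in replicates 1 to 4. Fos was at 3.42, 0.94, 4.66 and 1.05 TPM in these libraries, so the highest Fos of that group was not at its highest sum. Gadd45b was lowest of its group in HFD replicate 4. The part of Kupffer cell RNA in these genes' levels was not tested. The sum of 6 adipose tissue markers was 5.87 to 22.2 TPM in NFD, 17.5 to 50.5 in HFD and 4.60 to 9.89 in NAC_HFD. Its leading marker, Cidec, was at 1.33 to 15.3 TPM in NFD, 5.69 to 13.6 in HFD and 0.44 to 3 in NAC_HFD. Fabp4, the next, differed less, at 3.64 to 6.82, 4.86 to 8.34 and 4.02 to 5.29 TPM in the same order. In HFD replicate 4, with the sum of 50.5 TPM, Cidec was at 11.7 and Fabp4 at 6.03 TPM, so other markers added to it. The markers thus did not move alike, and the part of adipose tissue RNA was not tested either.

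Csrnp1 RNA was divided over 5 transcripts of the mRNA table, of which 1 was listed at 0 in all libraries, and 1 lncRNA transcript. ENSMUST00000216929 was at 2.06, 2.02, 2.36 and 2.52 TPM in NFD, at 0.680, 1.49, 1.39 and 0.580 in HFD and at 2.07, 3.25, 3.39 and 3.89 in NAC_HFD, so that HFD lay below both other groups. ENSMUST00000214058 was at 3.07 to 4.46 TPM in NFD, 1.31 to 2.72 in HFD and 1.5 to 4.73 in NAC_HFD. ENSMUST00000215916 did not share the low level in HFD, with means of 1.73 ± 0.780 TPM in NFD, 2.32 ± 0.788 in HFD and 2.20 ± 0.856 in NAC_HFD. Its share of the gene was 29.3% to 53.3% in HFD, above the 10.2% to 26.4% of NFD and the 8.45% to 27.2% of NAC_HFD. ENSMUST00000035101 was listed at 0 in all HFD libraries, in 2 of 4 NFD libraries and in 1 NAC_HFD library, and reached 4.62 TPM in NAC_HFD replicate 4. The authors' deposited table for NAC_HFD against HFD lists ENSMUST00000216929 with a log2 fold change of 1.76 and an adjusted p of 0.0161, and that for HFD against NFD lists it with -1.14 and an adjusted p of 0.234. The authors' deposited tables also list ENSMUST00000035101, with adjusted p of 0.138 and 0.230 in the same order. The log2 fold changes listed for it, 9.27 and -7.75, rest on a level of 0 in HFD and give no size of the change. How the authors divided reads between transcripts is not stated, and a level listed at 0 can be a failed estimate.

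**Figure D3:**
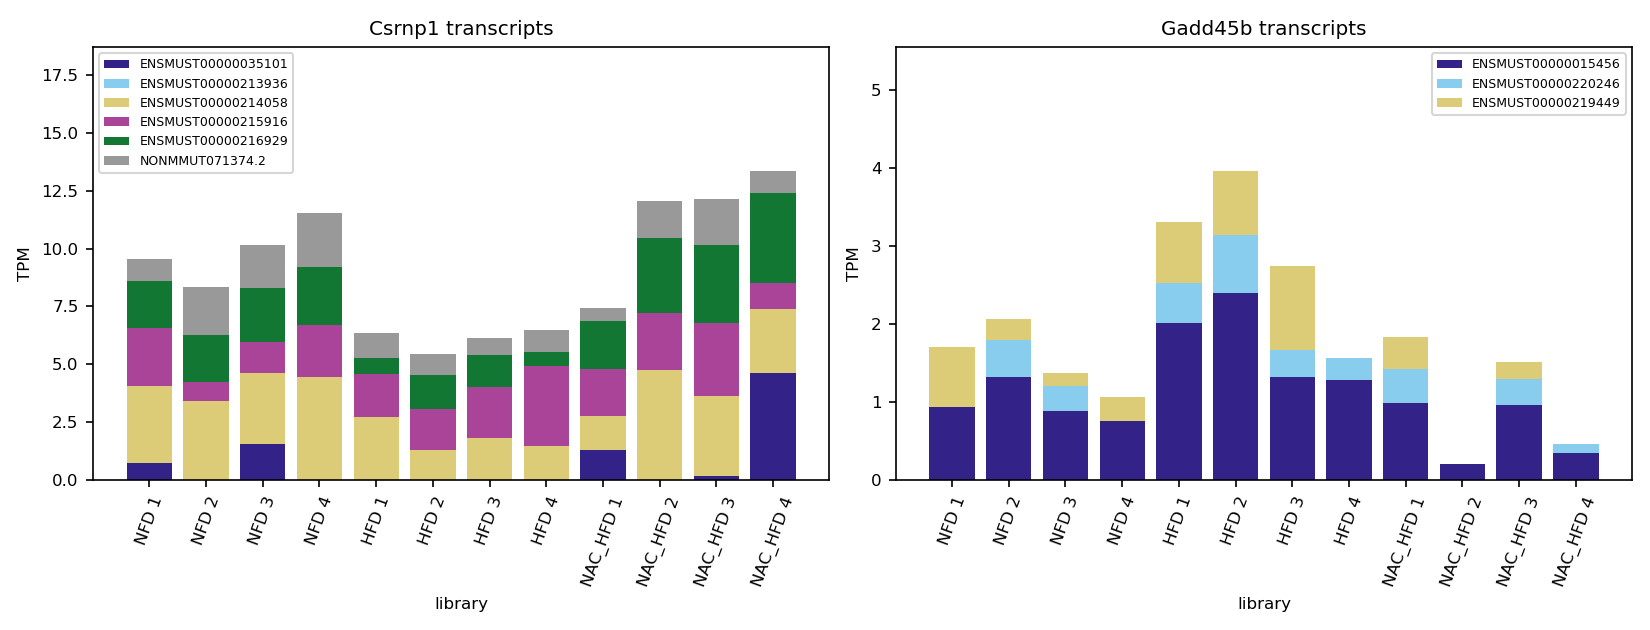
Stacked TPM of the transcripts of Csrnp1 (left) and Gadd45b (right) in each library. In Csrnp1 the HFD bars lack ENSMUST00000035101 and have less ENSMUST00000216929 (0.580 to 1.49 TPM) than all bars of the other groups.

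The genes did not vary as 1 block across the 12 libraries. Over the 45 pairs the median Pearson r of log2(TPM + 1) was 0.18, and 32 pairs were positive. Of the 9 pairs with Fos, 2 passed a permutation test adjusted over the 9. The test permuted libraries across the groups, so a pass can reflect differences between groups as well as variation within them. No p-value was computed after subtraction of group means. Fos and Btg2 had r = 0.74 (permutation adjusted p = 0.0304) and rho = 0.82 (0.0166), 0.67 after subtraction of group means and 0.66 without the 2 libraries farthest from the median of Fos. With each library left out in turn this pair passed in 6 of 12 cases, and it was lost without NFD replicate 1 or 2, HFD replicate 2 or 3, or NAC_HFD replicate 2 or 3 (permutation adjusted p up to 0.0925). Fos and Egr1 had r = 0.66 (permutation adjusted p = 0.0441) and rho = 0.71 (0.050), and 0.83 after subtraction of group means. Without the 2 libraries farthest from the median of Fos, its r with Egr1 was 0.42. Leaving out these 2 also narrows the range of Fos, so the drop does not show that the relation rests on them. With 1 library left out in turn r was 0.63 to 0.70, and the pair passed in 3 of 12 cases. Those were without NFD replicate 4, HFD replicate 1 or HFD replicate 4, and the pair was lost in the 9 others (permutation adjusted p up to 0.105). Fos and Jun, partners in AP-1, had r = 0.09 (permutation adjusted p = 0.781).

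Other pairs were looked at after their values were seen, with p adjusted over all 45, of which 5 passed, Fos and Btg2 among them (permutation adjusted p = 0.0380). Egr1 and Btg2 had a higher r, 0.78, but did not pass (permutation adjusted p = 0.0631), and r was 0.40 without NAC_HFD replicate 3. Junb and Egr1 had r = 0.71 (permutation adjusted p = 0.0380) and rho = 0.78 (0.0460), with 0.60 after leaving out the 2 libraries farthest from the median of Junb. Gadd45b ran opposite to Csrnp1, with r = -0.85 (permutation adjusted p = 0.00450) and rho = -0.89 (0.0108). After subtraction of group means r was -0.69, and without the 2 libraries farthest from the median of Gadd45b it was -0.83. Gadd45b and its paralog Gadd45g had r = -0.84 (permutation adjusted p = 0.0137) and rho = -0.71 (0.0728), with -0.67 after subtraction of group means and -0.65 without the 2 farthest libraries. Gadd45g and Csrnp1 had r = 0.74 (permutation adjusted p = 0.0488) and rho = 0.71 (0.0728), with 0.49 after subtraction of group means and 0.66 without the 2 farthest. With each library left out in turn and p adjusted over the 45, Gadd45b and Csrnp1 passed in 12 of 12 cases (permutation adjusted p up to 0.0463). Gadd45b and Gadd45g passed in 10, being lost without HFD replicate 2 or NAC_HFD replicate 2 (up to 0.0952). Junb and Egr1 passed in 6, being lost without NFD replicate 1 or 2, HFD replicate 1 or 2, or NAC_HFD replicate 2 or 3 (up to 0.109). Fos and Btg2 passed in 4, and Gadd45g and Csrnp1 in 2, those without NFD replicate 3 or NAC_HFD replicate 1 (up to 0.105 and 0.122). NAC_HFD replicate 2 had both the highest Gadd45g, 101 TPM, and the lowest Gadd45b, 0.2 TPM, of the 12 libraries.

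**Figure D4:**
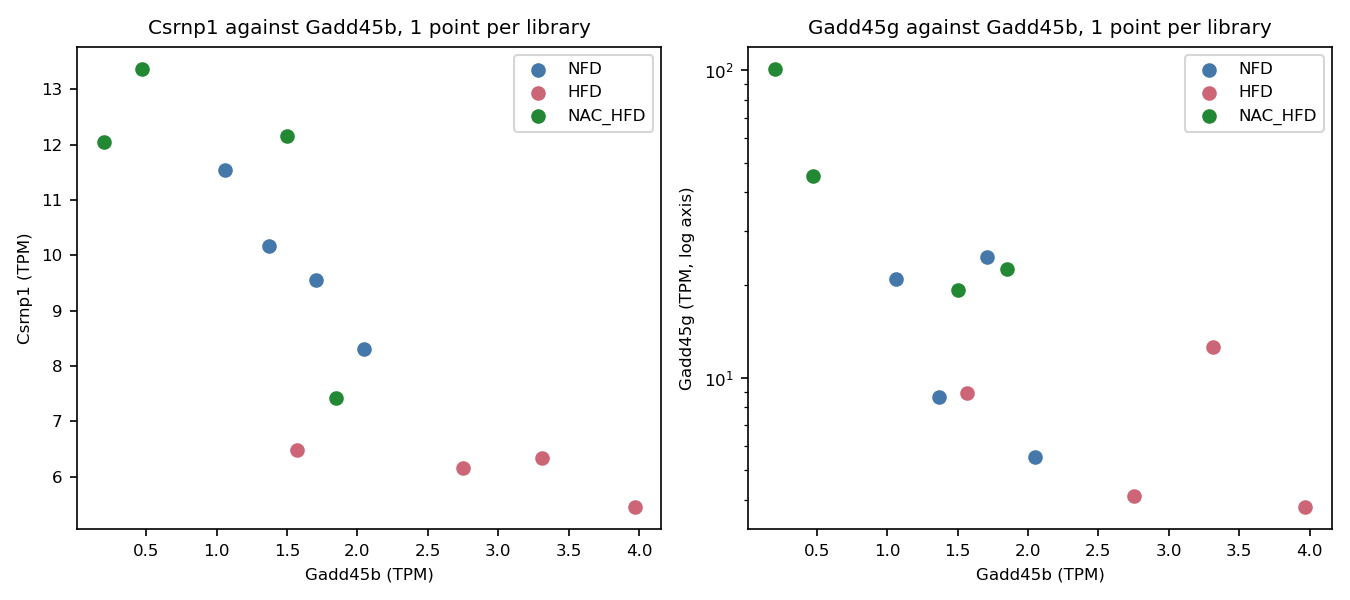
Csrnp1 (left, TPM) and Gadd45g (right, TPM on a log axis) against Gadd45b (TPM), 1 point per library, coloured by group. NAC_HFD libraries of replicates 2 and 4 are at the upper left (Gadd45b 0.2 and 0.470 TPM), and 3 of the 4 HFD libraries are at the lower right (Gadd45b 2.75 to 3.97 TPM).

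**Figure D5:**
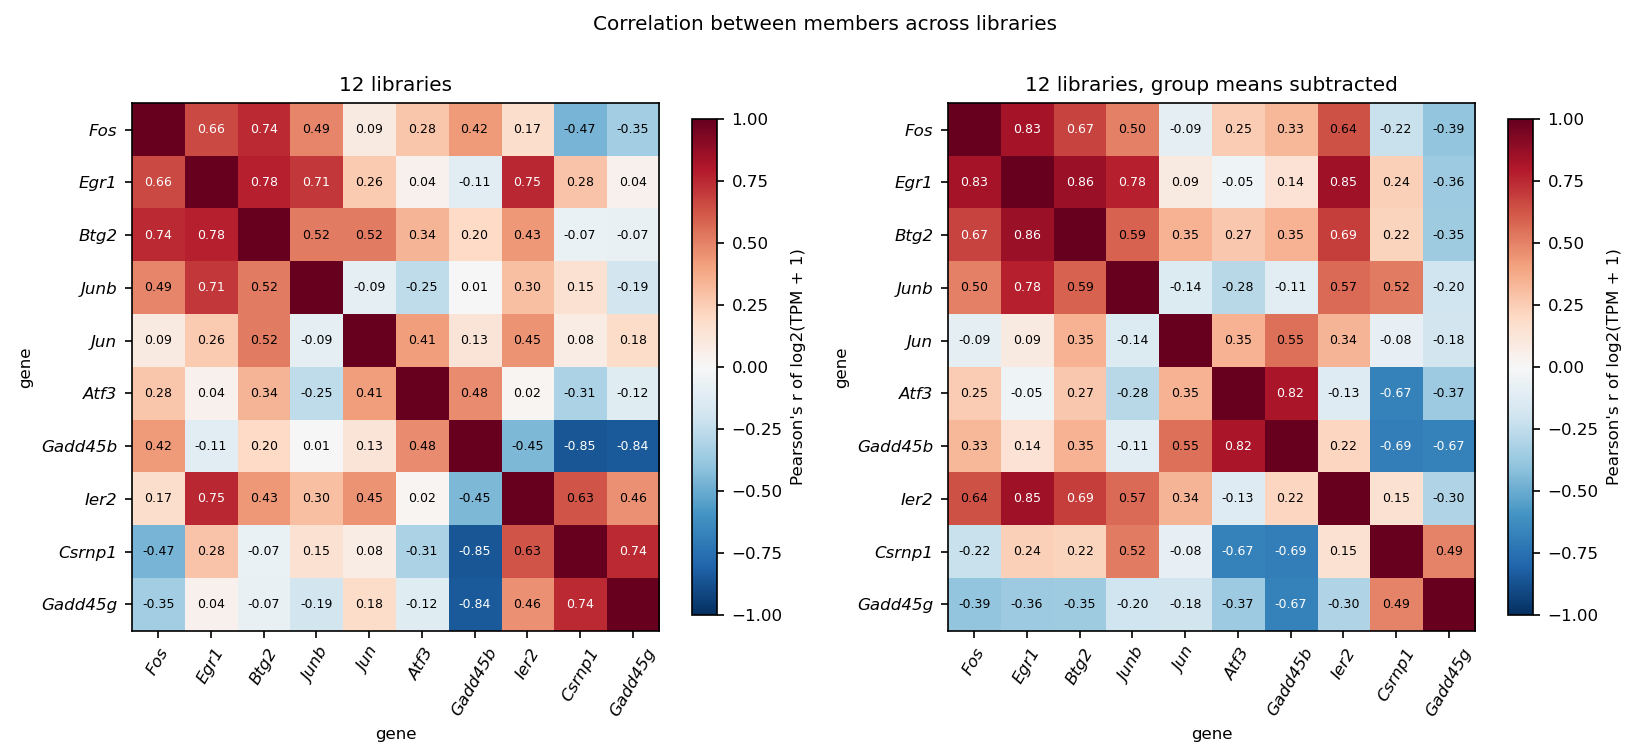
Pearson's r of log2(TPM + 1) between each pair of the 10 genes over 12 libraries (left) and after subtracting group means (right). Pairs among Fos, Egr1, Btg2 and Junb have r of 0.49 to 0.78 on the left, and 0.31 to 0.73 without NAC_HFD replicate 3. Egr1 also has r = 0.75 with Ier2 (0.19 without that library). Gadd45b is negative with Csrnp1 (-0.85) and Gadd45g (-0.84).

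The genes outside the 10 whose pattern over the 12 libraries was most like the mean standardized level of the 10 were Tmod3 (r = 0.90), Vmn1r197 (0.86), Vsig2 and Map4k4 (0.85 each), Mthfd1 (0.84), Sytl1 and Rabgap1l (0.82 each) and Taf1b (0.81). Without NAC_HFD replicate 3 these r were between 0.36 and 0.67. That library had a mean standardized level of 1.41, against -0.50 to 0.26 in the 11 others. Most like Fos alone were Extl1 (0.87), Atpaf1 (0.85) and Tusc3 (0.85), and without NAC_HFD replicate 3 these were 0.85, 0.87 and 0.86. All genes of this paragraph were picked for the highest r among the tested genes over 12 libraries, so the choice itself raises r. How high r would be by chance was not tested.

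Other genes of the early response were taken from lists of general knowledge. In NAC_HFD against NFD, in which each call below was made, 1.76% of all tested genes were called higher and 3.52% lower. Of 10 tested further members of the AP-1 and ATF families, limma called 0 in any comparison (1, 2 and 3 with an unadjusted p under 0.05). Of 17 other early transcription factors, 1 was called, in NAC_HFD against NFD: Cebpb, a bZIP factor of the acute phase and of liver growth, rose to 26.0 ± 9.37 TPM, from 12.5 ± 4.11 in NFD (0.99 on the log2 scale, SE 0.23, adjusted p = 0.0306). It was at 22.8 ± 2.01 TPM in HFD, where it did not pass against NFD (0.86, adjusted p = 0.0675), and NAC_HFD against HFD was at 0.13 (adjusted p = 0.825). Its call was kept in 9 of 18 alternatives and lost without NFD replicate 2, 3 or 4 or without NAC_HFD replicate 2, 3 or 4 (adjusted p up to 0.0967 over the 18). Of 32 early effector and feedback genes, 1 was called, also in NAC_HFD against NFD: Errfi1, an inhibitor of the epidermal growth factor receptor, rose to 657 ± 87.8 TPM, from 458 ± 80.8 in NFD (0.53, SE 0.13, adjusted p = 0.0322). In HFD it was at 531 ± 30.7 TPM, and neither HFD against NFD (0.23, adjusted p = 0.364) nor NAC_HFD against HFD (0.30, adjusted p = 0.267) passed. This call was kept in 10 of 18 alternatives and lost without NFD replicate 2, 3 or 4 or without NAC_HFD replicate 3 or 4 (adjusted p up to 0.0979). Both were named after their values were seen, because the counts are small; 1 of 17 and 1 of 32 called is a share near the 5.28% of all tested genes and is no result about the lists. Of 24 upstream factors and kinases, such as Srf, Elk1, Creb1 and the MAP kinases, limma called 0 in any comparison (0, 0 and 2 with an unadjusted p under 0.05).

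Of a fixed panel, Myc, a growth factor-induced transcription factor, was at 16.5, 2.32, 4.27 and 9.47 TPM in NFD, at 6.52, 2.00, 1.62 and 4.28 TPM in HFD and at 9.65, 41.2, 4.24 and 30.5 TPM in NAC_HFD. As for Gadd45g, NAC_HFD replicates 2 and 4 were the highest libraries; the fold change of NAC_HFD against HFD was 1.97 (SE 0.74, adjusted p = 0.235). Dusp1, a phosphatase that turns off MAP kinases, had means of 38.1 ± 7.05 TPM in HFD and 56.6 ± 8.46 in NAC_HFD (adjusted p = 0.402). Zfp36, which speeds decay of mRNAs with AU-rich elements, was at 102 TPM in NAC_HFD replicate 3 and 25.8 to 51.2 TPM in the 11 other libraries. The nuclear receptor Nr4a1 had means of 2.15 ± 0.466 TPM in HFD and 1.05 ± 0.630 in NAC_HFD (adjusted p = 0.253). Klf6, Ppp1r15a and Gadd45a had adjusted p from 0.496 to 0.916 in the 3 comparisons, and Ier3, at 0.370 to 0.990 TPM, did not pass the filter.

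Lists of other stress and rhythm genes were set beside these. All 13 heat shock genes, which HSF1 controls, had negative log2 fold changes in NAC_HFD against NFD, with a median of -0.74 beside -0.07 over all tested genes. Of these, 9 were called lower, beside 3.52% of all tested genes. The count was 3 to 10 over 18 alternatives: 4 without NFD replicate 1, without NFD replicate 3 or without NAC_HFD replicate 3 or 4, and 5 without NAC_HFD replicate 1. In HFD against NFD and in NAC_HFD against HFD all 13 had negative fold changes and 0 were called (4 and 8 with an unadjusted p under 0.05). The chaperone Hsph1 fell from 116 ± 17.5 to 59.8 ± 14.9 TPM (-0.97, SE 0.15, adjusted p = 0.00601), and Hspa4l, Bag3 and Hspa8 fell by 0.74, 0.79 and 0.76 (adjusted p = 0.00960, 0.0118 and 0.0173). Among these 4, the calls of Hsph1, Hspa4l and Bag3 were kept in 18 of 18 alternatives and that of Hspa8 in 16, being lost without NAC_HFD replicate 4 and in the fit on only the 2 groups compared (highest adjusted p = 0.0625). Of 9 genes of the ATF4 stress response, 1 was called, also in NAC_HFD against NFD, where 4 of 9 had a positive fold change (median -0.20). This gene, Chac1, which degrades glutathione, rose from 0.695 ± 0.546 to 3.46 ± 1.08 TPM (1.42, SE 0.21, adjusted p = 0.00530). It was low in NFD, at 0.19 to 1.45 TPM. The call was made in 17 of 17 alternatives, and the filter at 5 TPM left the gene out. Of 13 circadian clock genes, 1 was called in NAC_HFD against NFD: Per2, a repressor of the clock, fell from 23.4 ± 2.36 to 16.0 ± 2.91 TPM (-0.53, SE 0.12, adjusted p = 0.0243). That call was kept in 12 of 18 alternatives and lost without NFD replicate 1 or 2 or without NAC_HFD replicate 3 or 4 (adjusted p up to 0.0779). Beside the 5.28% of all tested genes called in NAC_HFD against NFD, 1 of 9 and 1 of 13 are no result about these 2 lists. Of 8 glucocorticoid targets, limma called 0 in any comparison (2, 1 and 2 with an unadjusted p under 0.05).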

How the data were processed

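Liver RNA of 12 mouse samples was sequenced, 4 each of NFD, HFD and NAC_HFD; groups and replicate numbers come from the sample titles. Per the submitters' processing notes, fastp, HISAT and RSEM were used with build GRCm38; no version or setting is given in the sources used here. The deposited gene, mRNA and lncRNA tables hold TPM made by the authors, which keeps no read depth. In the tables of transcript comparisons the authors deposited a linear ratio, its log2 and p-values, from a test that the files leave unnamed; 40 columns of library or mean values there were not used.

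Genes with at least 1 TPM in at least 4 of 12 libraries were kept (11376 of 19252, 59.1%), put on the scale log2(TPM + 1), and fitted with limma 3.58.1 in R 4.3.3: 3 group means over 12 libraries, 9 residual degrees of freedom, eBayes with trend and robust, two-sided, Benjamini and Hochberg over all tested genes per comparison. Fold changes understate low genes because of the pseudocount. Correlations over 12 libraries used two-sided permutation tests with 100000 resamples, in which libraries were permuted without regard to group. limma and the correlation test were tested on simulated data.

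The 10 genes, the lists and the motifs were chosen with earlier results of these data known. Named genes are the 10, list genes past the threshold (at most 6 per comparison, by p), a panel of 8 and the 11 genes most alike in pattern; others are said to be named after their values were seen. Positions and promoter sequences are from RefSeq, GRCm38.p6; the 50 bases after each start were left out. Alternatives were other pseudocounts, filters, scalings and variance settings, 2-group fits, a replicate block and leaving out each library. Those for related genes, and leaving out libraries for all 45 pairs, were chosen after seeing the data. The labels give no batch. Replicate numbers did not pair libraries: of 12 same-numbered pairs, 2 had deviations correlated above 0.1.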

Additional observations from a re-analysis of the deposited data

Results flagged for a closer look

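In 3 of 30 gene and group combinations 1 library stood apart from the 3 others of its group, by Dixon's ratio of its gap to the nearest over the group's range (0.937, 0.907 and 0.939 in the order below); chance flags about 1 in 20. Fos in NFD replicate 3 was at 2.21 TPM, with the rest of NFD at 0.95 to 1.03 TPM. Jun in NAC_HFD replicate 3 was at 49.84 TPM, with the rest of that group at 22.1 to 24.7 TPM. Egr1 in NAC_HFD replicate 3 was at 27.35 TPM, with the rest of that group at 2.98 to 4.46 TPM.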

How the results depend on the processing

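Of 288 fold changes of the 10 genes under other settings with all libraries of the comparison, 286 kept direction and side of the threshold, 0 reversed and 2 lost the call, both Csrnp1 in HFD against NFD. Those were without a filter on low values and without trend and robust, which left 0 of the 10 called. Of 240 values with 1 library left out, 216 kept both, 16 reversed, 7 lost and 1 gained the call. With 1 library left out in turn, the fold change in HFD against NFD was -0.0569 to 0.37 for Junb, -0.16 to 0.37 for Egr1 and -0.0331 to 0.23 for Atf3. In NAC_HFD against HFD it was -0.33 to 0.0734 for Junb, -0.0436 to 0.90 for Egr1, -0.0615 to 0.20 for Atf3 and -0.20 to 0.16 for Btg2, and in NAC_HFD against NFD -0.17 to 0.26 for Junb. None of these genes passed in these comparisons with all libraries. The correlation of Fos ranged from -0.25 to 0.38 with Jun and from -0.30 to 0.36 with Ier2, negative without NAC_HFD replicate 3. Of 153 correlations of Fos under alternatives, 136 kept direction and side, 2 reversed and 15 lost the call, all 15 with a library left out, 9 with Egr1 and 6 with Btg2. With 1 library left out 0 to 1 of the 10 genes were called in HFD against NFD and 0 to 1 in NAC_HFD against HFD. Over all genes 90 to 298 were called in HFD against NFD (90, 129 and 97 without HFD replicates 1, 2 and 4, and 142 without NFD replicate 1), 0 to 64 in NAC_HFD against HFD (64 without NAC_HFD replicate 1, 23 without HFD replicate 3), and 211 to 618 in NAC_HFD against NFD (211 and 243 without NAC_HFD replicates 4 and 3, 252 and 295 without NFD replicates 1 and 3). Without a filter, 168 genes were called in HFD against NFD and 289 in NAC_HFD against NFD, and with only the compared groups in the fit 188 in the latter. The cause was not tested. Higher against lower calls in NAC_HFD against NFD were 200 against 401 as deposited, 363 against 269 after median-of-ratios scaling, 314 against 294 after quantile normalization and 183 against 496 after rescaling. In HFD against NFD they were 249 against 67, then 274 against 121, 259 against 160 and 188 against 99. A filter at 5 TPM leaves out the low genes, among them Fos, Atf3 and Gadd45b, which then have no value.

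With the replicate number as a block, 225, 3 and 406 genes were called in the 3 comparisons, against 316, 0 and 601 without it, and 1, 0 and 0 of the 10 genes. Deviations of same-numbered libraries correlated at -0.173 to 0.179, and 3 of 12 libraries correlated best with their own number. TPM keeps no depth, so the counting error behind low values such as those of Fos, Atf3 and Gadd45b is unknown.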
